A study of Mus musculus with 8 samples.

Results

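The accessible chromatin of 8 Kruppel-like factor genes was compared between day 21 and day 7 of tumour growth in dendritic cells. The genes were Klf2, Klf3, Klf4, Klf6, Klf7, Klf9, Klf10 and Klf13. A region of the deposited count table was taken for a gene when its centre lay in the gene body, or within 50 kb of it with an end of that gene as the nearest protein-coding gene end. This gave 117 of the 128057 regions: 24 at Klf6, 24 at Klf13, 19 at Klf3, 17 at Klf7, 13 at Klf4, 9 at Klf2, 8 at Klf10 and 3 at Klf9. Of these, 16 lay within 1 kb of an end of their own gene (gene-end regions) and 100 lay outside the windows of every protein-coding gene (distal regions). The remaining region, inside Klf3, lay at an end of the overlapping gene Gm38457.

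The cells were type 1 conventional dendritic cells (cDC1s), dendritic cells that cross-present antigen from other cells to CD8 T cells. They were sorted from tumours of B16-OVA, a mouse melanoma line carrying ovalbumin as a model antigen, grown in wild type mice. There were 4 libraries at day 21 and 4 libraries at day 7 after inoculation, and no other agent or allele is labelled. ATAC-seq uses a transposase that enters open DNA. Accessibility is given here in CPM (the count of a region per 1000000 counts of its library in regions). More cells with an open region and a region more open in each cell cannot be told apart in such data. Nothing in the labels says that the 4 libraries were taken from different mice, and p-values then measure only how these libraries vary. Total counts in regions ran from 14021151 to 27737040 per library at day 21 and from 9440223 to 16063736 at day 7, and the labels name no batch. The share of counts at gene ends of all protein-coding genes was 36.1% to 36.6% at day 21 and 37.9% to 39.3% at day 7, which moves with every comparison of gene ends here. Its part in them was not tested beyond the alternative scalings given beside them.

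Kruppel-like factors are transcription factors whose zinc fingers bind GC-rich and CACCC sequences in promoters and enhancers. KLF2, KLF4, KLF6 and KLF7 belong to a branch that mostly activates genes through acetyltransferases, KLF3 to a branch that represses through CtBP, and KLF9, KLF10 and KLF13 to a branch that binds the corepressor Sin3. In myeloid cells KLF2 restrains inflammatory activation, KLF4 drives monocyte differentiation and shapes a subset of conventional dendritic cells, and KLF6 is linked to inflammatory gene programmes of macrophages.

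The 250 bases before the annotated start are shown for 4 genes, from RefSeq on GRCm38.p6 (the assembly of mm10), because the results turn on the regions over these starts, which are set against the far gene ends for Klf2, Klf4 and Klf6 and were lower at day 21 for Klf9. Each stretch lies wholly inside the accessible region over that start. Capitals mark every match, on either strand, to CACCC and CCNCNCCC (motifs bound by KLF proteins), TGANTCA (AP-1), TGACGTCA (CRE), GAGGAAG (PU.1), GAAA and GAAA with any 2 bases between them (IRF), CTA and TAG with any 4 bases between them (MEF2) and the CArG box (SRF).
Klf2, chr8:72318812-72319061, plus strand: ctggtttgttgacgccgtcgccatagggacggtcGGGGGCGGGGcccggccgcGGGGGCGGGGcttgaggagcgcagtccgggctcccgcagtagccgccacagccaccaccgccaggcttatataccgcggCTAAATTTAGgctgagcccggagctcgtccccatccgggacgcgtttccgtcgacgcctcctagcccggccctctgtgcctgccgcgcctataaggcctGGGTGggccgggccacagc
Klf4, chr4:55532476-55532725, minus strand: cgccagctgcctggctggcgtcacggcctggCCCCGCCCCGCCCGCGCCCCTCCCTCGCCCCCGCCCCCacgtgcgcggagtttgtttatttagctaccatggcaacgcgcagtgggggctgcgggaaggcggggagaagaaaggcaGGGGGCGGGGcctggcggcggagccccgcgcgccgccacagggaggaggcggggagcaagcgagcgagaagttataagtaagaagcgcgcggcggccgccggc
Klf6, chr13:5861239-5861488, plus strand: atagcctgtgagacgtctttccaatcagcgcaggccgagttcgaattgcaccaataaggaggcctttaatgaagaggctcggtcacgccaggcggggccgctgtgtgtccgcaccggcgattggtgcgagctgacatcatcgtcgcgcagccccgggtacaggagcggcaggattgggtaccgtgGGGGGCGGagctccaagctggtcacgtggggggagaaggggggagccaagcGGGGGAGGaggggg
Klf9, chr19:23140976-23141225, plus strand: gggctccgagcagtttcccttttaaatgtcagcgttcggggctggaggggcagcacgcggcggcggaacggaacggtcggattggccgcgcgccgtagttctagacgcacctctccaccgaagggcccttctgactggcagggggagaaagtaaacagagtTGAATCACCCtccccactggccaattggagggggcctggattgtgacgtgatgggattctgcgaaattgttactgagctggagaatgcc

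CCNCNCCC, the longer KLF motif, was found in 6 of the 7 Klf promoters in the table (Klf9 was the exception; Klf10 has no entry there), against 45.6% of 27025 promoters of the same length. CACCC was found in 5 of 7, all but Klf4 and Klf6, against 51.3% of all promoters. The 2 KLF motifs overlap where a CCNCNCCC match holds CACCC. MEF2's motif was found once, 118 bases before the Klf2 start (3.23% of all promoters). AP-1's motif was found once, 89 bases before the Klf9 start, where it overlaps a CACCC (6.87% of all promoters). CRE, PU.1, IRF and CArG matches were found in 0 of 7 windows, against 1.62%, 10.4%, 3.04% and 1.40% of all promoters. The 7 windows held 59.2% to 78.4% G and C, against a median of 52.0% over all promoters, and GC-rich motifs match GC-rich windows more often.

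Of the 116 Klf regions that could be tested, 23 were higher and 8 lower at day 21, and 85 did not pass (edgeR's quasi-likelihood test, adjusted p under 0.05 over all regions). Of all 121955 regions tested, 9.49% were higher and 9.85% lower, against 19.8% and 6.90% of the Klf regions. The 8 genes were chosen with earlier results of these data known. Comparisons of Klf shares with all regions or all genes are therefore no independent test of the family. The lowest library of day 21 lay above the highest of day 7 in 23 Klf regions (9.99% of all regions), and the reverse held in 8 (9.79% of all regions). The median log2 fold change was 0.04 over the Klf regions and 0.00 over all regions. By place, 3 of the 16 gene-end regions were higher and 1 lower, where 6.64% of all gene-end regions were higher and 16.6% lower. Of the 29 distal regions inside Klf gene bodies, 11 were higher and 0 lower. Inside any gene body 10.7% of distal regions were higher and 8.05% lower. In the Klf flanks 8 were higher and 7 lower of 70 tested, near the shares of all distal regions outside gene bodies, 8.99% higher and 9.14% lower. The difference between bodies and flanks was not tested. Of all 23 higher regions, 12 lay in a gene body, 9 within 10 kb of it and 2 farther out. Of the 8 lower regions, 0 lay in a body, 3 within 10 kb and 5 farther out, at a median of 21.8 kb from the gene. The 3 included the Klf9 start region, whose centre lay 46 bp outside the gene. Of the 85 that did not pass, 24 lay in a body, 20 within 10 kb and 41 farther out, at a median of 9.71 kb. The higher regions had a median of 13.0 CPM and 6 of them changed at least 2-fold, while the lower ones had a median of 4.52 CPM and 3 changed at least 2-fold. Those that did not pass had a median of 4.46 CPM, near that of the lower ones, and 1 changed at least 2-fold. Such places were not counted over all regions.

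**Figure D1:**
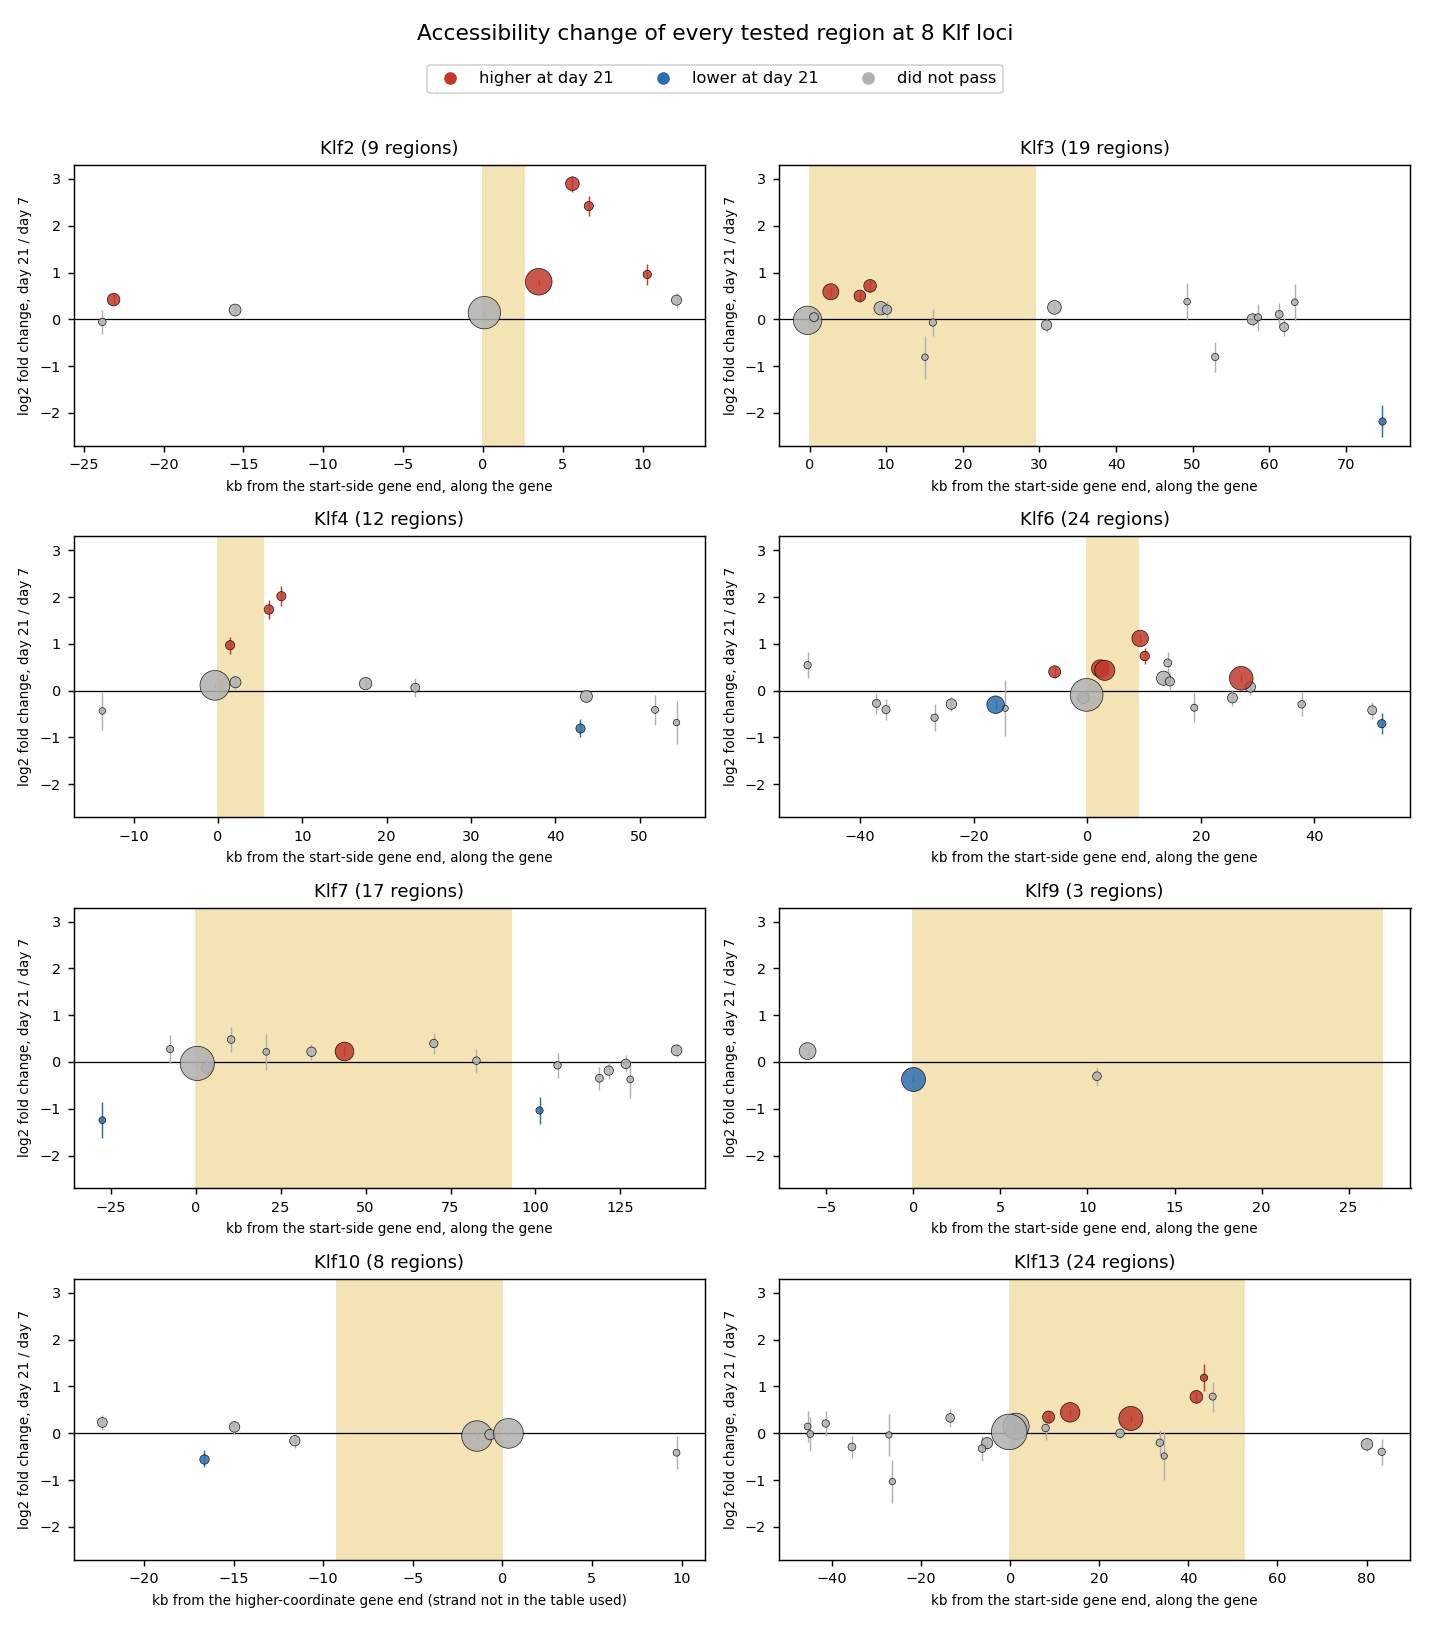
Log2 fold change (day 21 over day 7, ± SE) of each tested region against its distance in kb from the start-side gene end, with 1 panel per gene. For Klf10, whose strand was not used, the distance is from the higher-coordinate gene end. Shading marks the gene body, and circle area grows with mean CPM. The highest points of the panels of Klf2 (2.90), Klf4 (2.02) and Klf6 (1.12) stand at or just beyond the far end of the gene, while the large circles over the starts stay near 0 except at Klf9 (−0.36).

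Klf2, whose product keeps lymphocytes quiescent and restrains myeloid activation, showed the largest change of the family. Its sum over both gene ends was 187, 214, 199 and 186 CPM in the day 21 libraries (replicates 1 to 4), against 144, 147, 150 and 154 CPM in the day 7 libraries. The groups did not overlap, and the log2 fold change was 0.40 ± 0.05 (SE; edgeR adjusted p = 8.60e-09). Its distal sum was 62.4, 96.0, 82.5 and 76.3 CPM at day 21, against 39.6, 32.0, 37.4 and 42.1 CPM at day 7, a log2 fold change of 1.06 ± 0.08 (edgeR adjusted p = 2.76e-16). Again every day 21 library was above every day 7 library, with replicate 1 the lowest of day 21.

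Within the Klf2 locus the change lay mostly downstream. Over the start (chr8:72318621-72319682), the region had 106, 115, 107 and 108 CPM at day 21 and 96.5, 97.5, 97.7 and 102 CPM at day 7. These values did not overlap, yet the difference was small, at a log2 fold change of 0.14 ± 0.06, and missed the threshold (edgeR adjusted p = 0.0599; DESeq2 gave 0.0406 and trended offsets gave 7.56e-05). At the far end (chr8:72322136-72322974) the counts were 81.4, 99.3, 92.3 and 78.8 CPM at day 21 and 47.8, 49.7, 52.1 and 51.6 CPM at day 7. That is a log2 fold change of 0.80 ± 0.07 (edgeR adjusted p = 5.70e-15), with wide separation between the days.

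The next region, centred 3.01 kb beyond the annotated end of Klf2 (chr8:72324275-72325053), had 16.3, 38.5, 31.0 and 26.0 CPM at day 21 and 4.82, 2.23, 2.36 and 5.03 CPM at day 7. It was 7.45-fold higher, with a log2 fold change of 2.90 ± 0.17 (edgeR adjusted p = 9.07e-22), and the days were far apart, with replicate 1 again the lowest of day 21. Centred 4.04 kb beyond the end, a narrower region (chr8:72325582-72325797) had 6.82, 12.3, 7.90 and 8.40 CPM at day 21 and 1.41, 1.81, 1.26 and 2.05 CPM at day 7, a 5.35-fold difference (log2 2.42 ± 0.22; edgeR adjusted p = 6.75e-14). These 2 regions made up 76.1% of the distal difference of Klf2. The region 7.70 kb downstream also passed (log2 0.96 ± 0.22, edgeR adjusted p = 9.54e-04), with overlap between the days, as did 1 lying 23.1 kb upstream (0.42 ± 0.12, edgeR adjusted p = 0.00913). The nearest protein-coding genes were Eps15l1, 19.3 kb beyond the end, and Ap1m1, 61.7 kb before the start.

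Klf4, the monocyte differentiation and pluripotency factor, showed the same arrangement at lower counts. Its start region (chr4:55532144-55533573) had 85.6, 93.8, 92.1 and 89.5 CPM at day 21 and 78.0, 91.6, 82.6 and 82.0 CPM at day 7. The days overlapped and the log2 fold change of 0.11 ± 0.06 did not pass (edgeR adjusted p = 0.184). At the far end (chr4:55526171-55526727) there were 5.34, 11.3, 11.4 and 7.97 CPM at day 21 and 3.07, 2.44, 3.29 and 2.11 CPM at day 7, which is 3.32-fold higher (log2 1.73 ± 0.20; edgeR adjusted p = 8.56e-10). Centred 2.16 kb beyond that end (chr4:55524713-55525234), there were 6.75, 11.3, 9.55 and 7.04 CPM at day 21 and 2.24, 1.06, 2.70 and 2.30 CPM at day 7, 4.05-fold higher (log2 2.02 ± 0.21; edgeR adjusted p = 2.04e-11). In both downstream regions the days were separate and replicate 1 was the lowest library of day 21.

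Inside Klf4, a region 1.42 kb from the start was higher (7.17 ± 0.861 CPM at day 21 and 3.61 ± 0.717 CPM at day 7, SD, n = 4 each; log2 0.97 ± 0.18; edgeR adjusted p = 5.44e-05). The remote region 37.6 kb downstream was lower, at 3.93 ± 0.905 CPM at day 21 and 6.77 ± 1.21 CPM at day 7 (log2 −0.80 ± 0.19; edgeR adjusted p = 0.00114). The strongest distal region, 12.2 kb downstream, did not pass (log2 0.15, edgeR adjusted p = 0.424). A flank region of Klf4, 32.0 kb upstream, held too few counts to be tested. Summed, the Klf4 gene ends had 90.9, 105, 104 and 97.5 CPM at day 21 and 81.1, 94.0, 85.9 and 84.1 CPM at day 7 (log2 0.21 ± 0.06; edgeR adjusted p = 0.00425), with overlap. The gain in that sum was no longer called when only the annotated start was used (log2 0.11, edgeR adjusted p = 0.111).

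Klf6, a widely expressed factor with inflammatory roles in macrophages, had the start region with the most counts per kb of the 8 genes. That region (chr13:5861010-5861721) had 104, 109, 103 and 94.8 CPM at day 21 and 107, 117, 109 and 104 CPM at day 7, a difference that did not pass (log2 −0.09 ± 0.06; edgeR adjusted p = 0.277). Across the far end (chr13:5870380-5871212) the values were 30.4, 36.0, 38.5 and 29.8 CPM at day 21 and 15.7, 12.4, 15.9 and 17.4 CPM at day 7, which is 2.17-fold higher (log2 1.12 ± 0.10; edgeR adjusted p = 4.62e-14). The lowest day 21 library stood well above the highest day 7 library there. Also higher were a region 1.21 kb beyond the end (log2 0.74 ± 0.18, edgeR adjusted p = 0.00145) and 2 inside the gene (log2 0.47 ± 0.08 and 0.43 ± 0.08; edgeR adjusted p = 1.85e-05 and 4.59e-05).

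The Klf6 flanks went both ways. The strongest distal region, 18.2 kb downstream, had 58.6 ± 5.63 CPM at day 21 and 48.8 ± 2.47 CPM at day 7 (SD, n = 4 each; log2 0.26 ± 0.07; edgeR adjusted p = 0.00408). A region 16.2 kb upstream was lower, at 25.1 ± 2.84 CPM at day 21 and 30.9 ± 1.86 CPM at day 7 (log2 −0.30 ± 0.09; edgeR adjusted p = 0.00901). Both calls were lost without day 21 replicate 2 (edgeR adjusted p = 0.0758 for the downstream region and 0.0767 for the upstream one). The region 43.0 kb downstream was lower as well (log2 −0.71 ± 0.22, edgeR adjusted p = 0.0164), a call lost without day 7 replicate 2 (edgeR adjusted p = 0.129). Another upstream region, 5.75 kb from the gene, was higher (log2 0.40 ± 0.13, edgeR adjusted p = 0.0195), with overlap between the days. No other protein-coding gene lies within 677.7 kb of Klf6.

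**Figure D2:**
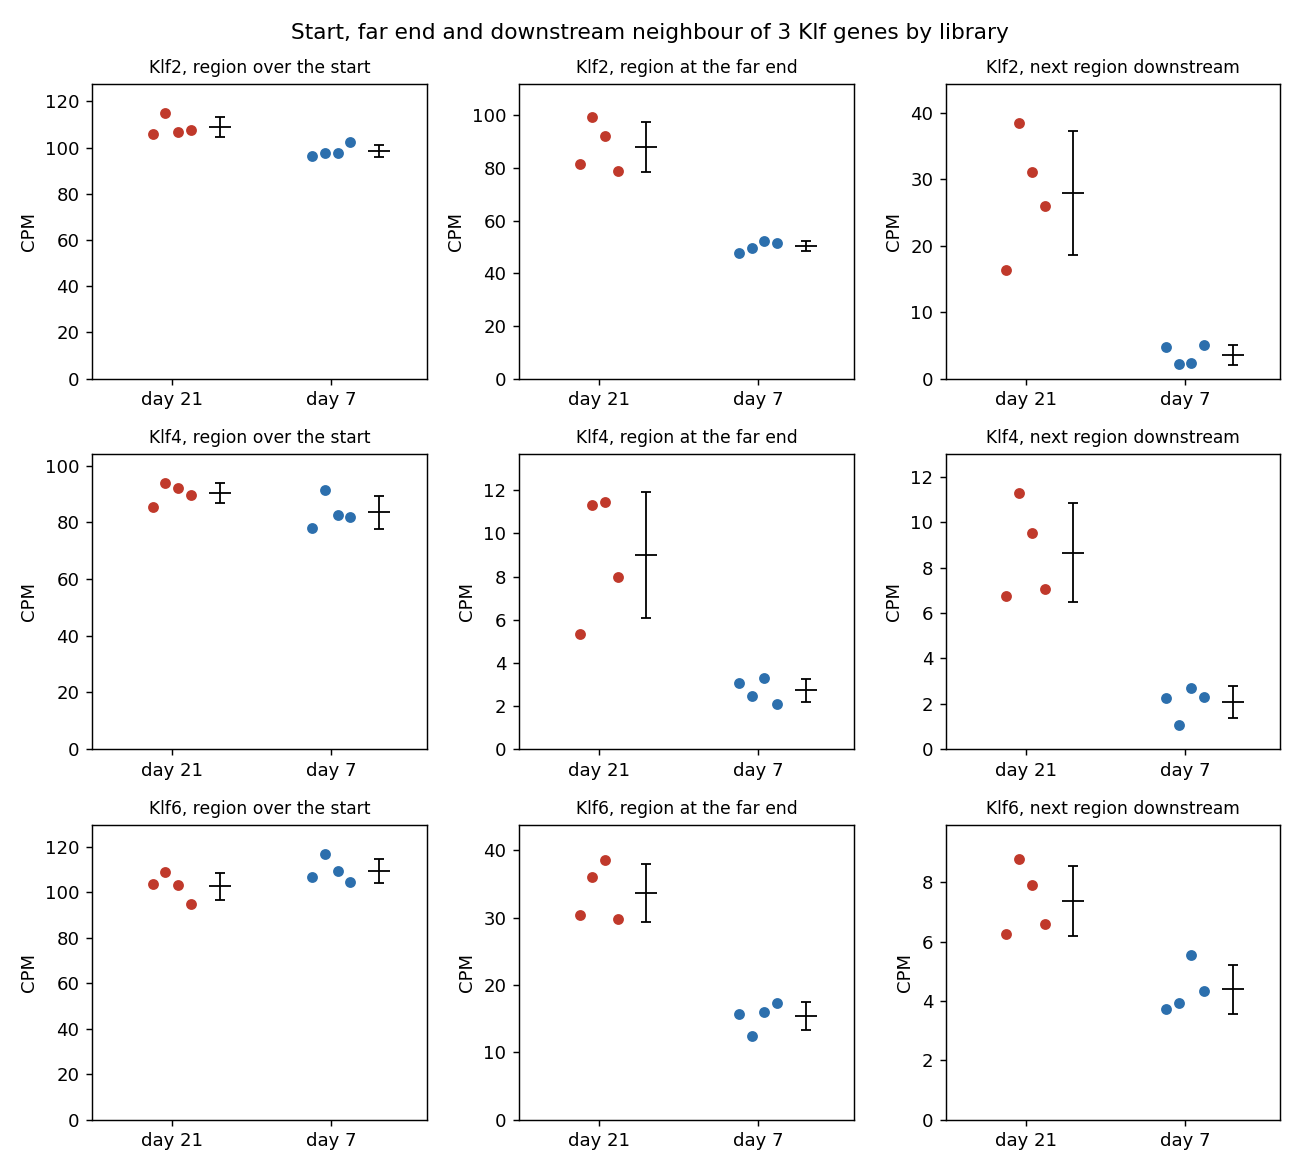
CPM in each library (points) with the mean ± SD (bars; 4 libraries a day) for the region over the start, the region at the far end and the next region downstream of Klf2, Klf4 and Klf6. In the middle and right columns every day 21 library is above every day 7 library, whereas over the starts of Klf4 and Klf6 the days overlap.

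Whether the far ends and the starts changed by different amounts was tested directly, on the log2 ratio of counts at the far end to counts at the start in each library (limma, over 2126 genes with regions at both ends). This test was added after the Klf regions had been seen. For Klf2 the log2 ratio was −0.38, −0.21, −0.21 and −0.45 at day 21 and −1.01, −0.97, −0.91 and −0.99 at day 7, a difference of 0.66 ± 0.06 (limma adjusted p = 8.90e-07). For Klf4 it averaged −3.37 at day 21 and −4.89 at day 7, a difference of 1.52 ± 0.20 (limma adjusted p = 4.23e-05). For Klf6 it averaged −1.74 at day 21 and −2.97 at day 7, a difference of 1.23 ± 0.12 (limma adjusted p = 6.21e-07). All 3 Klf genes with regions at both ends were therefore higher in this ratio, where 12.8% of all genes tested were higher and 4.8% lower, with a median difference of 0.10. In each of the 3 the 4 ratios of day 21 lay above the 4 ratios of day 7, as they did in 15.1% of all genes tested (below in 6.44%).

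Klf7, the remaining activator of the group and best known in neurons, changed little. Its start region, the only one at its ends, had 115, 122, 115 and 108 CPM at day 21 and 112, 120, 123 and 114 CPM at day 7 (log2 −0.03 ± 0.05; edgeR adjusted p = 0.755). Its strongest distal region, inside the gene 42.6 kb from the start, was higher, at 35.1 ± 1.47 CPM at day 21 and 29.9 ± 0.789 CPM at day 7 (SD, n = 4 each; log2 0.23 ± 0.08; edgeR adjusted p = 0.0261). That call was lost when day 21 replicate 3, day 21 replicate 4 or day 7 replicate 4 was left out (edgeR adjusted p up to 0.0917). In the flanks 2 weak regions were lower, 8.31 kb downstream (1.36 ± 0.227 CPM at day 21 and 2.82 ± 0.594 CPM at day 7; log2 −1.04 ± 0.29; edgeR adjusted p = 0.00654) and 27.5 kb upstream (log2 −1.24 ± 0.39, edgeR adjusted p = 0.0154). The upstream call was lost without day 21 replicate 4 (edgeR adjusted p = 0.0746) or day 7 replicate 2 (0.121).

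Klf3 encodes a repressor that recruits CtBP and acts in B cell development. Of its 6 distal regions inside the gene 2 were higher and 4 did not pass, and its start was level. Inside any gene body 10.7% of distal regions were higher. The start region (chr5:64802786-64803759) had 74.0, 77.3, 85.2 and 76.6 CPM at day 21 and 83.5, 83.5, 75.4 and 75.7 CPM at day 7 (log2 −0.02 ± 0.06; edgeR adjusted p = 0.860), and the days were mixed. The region 2.78 kb into the gene had 28.0, 27.0, 30.5 and 25.3 CPM at day 21 and 17.9, 17.3, 19.3 and 18.7 CPM at day 7, with no overlap (log2 0.59 ± 0.09; edgeR adjusted p = 1.56e-06). At 7.91 kb into the gene the values were 16.1 ± 3.36 CPM at day 21 and 9.87 ± 1.70 CPM at day 7 (SD, n = 4 each; log2 0.72 ± 0.13; edgeR adjusted p = 3.04e-05).

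Between these lay a region at an end of Gm38457, which was higher too (log2 0.50 ± 0.13, edgeR adjusted p = 0.00463) and enters neither Klf3 sum. The Klf3 start region also lay at an end of Gm38457, and the region 2.78 kb into Klf3 lay inside both genes. These regions cannot be assigned to Klf3 alone. The lower region of Klf3 was remote and weak, 45.3 kb beyond the far end, with 1.13, 0.662, 1.18 and 0.285 CPM at day 21 and 3.16, 4.25, 1.77 and 4.72 CPM at day 7. Every day 7 library exceeded every day 21 library there, a 4.52-fold higher level at day 7 (log2 −2.18 ± 0.34, edgeR adjusted p = 1.13e-06). The next protein-coding gene on that side, Tlr1, lies 91.8 kb beyond the Klf3 end. This remote region thus lies about midway between Klf3 and Tlr1.

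Of the Sin3-binding branch, Klf9 encodes a repressor induced by glucocorticoid and thyroid hormones. It had the only start region of the 7 with an annotated start that passed the test, and the change was a fall. That region (chr19:23140532-23141829) had 50.4, 48.6, 44.8 and 49.6 CPM at day 21 and 62.0, 58.4, 65.8 and 61.5 CPM at day 7, with every day 21 library below every day 7 library. Its log2 fold change was −0.36 ± 0.07 (edgeR adjusted p = 4.60e-05), the lowest of the 7 starts, whose log2 fold changes ran from −0.36 to 0.14. Among gene-end regions of all genes 16.6% were lower and 6.64% higher, so 1 lower of 7 is near the general share. The flank region 6.08 kb upstream had 27.5 ± 1.89 CPM at day 21 and 23.4 ± 1.94 CPM at day 7 and did not pass (log2 0.23 ± 0.09; edgeR adjusted p = 0.0572), nor did the region inside the gene (log2 −0.30, edgeR adjusted p = 0.317).

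Klf10, first known as a gene induced by TGF-beta, had 3 gene-end regions, all at its higher-coordinate end; RefSeq's strand for it was not used here. None of the 3 passed: the pair of strong ones had 90.0 ± 3.92 and 87.2 ± 5.22 CPM at day 21 and 93.8 ± 5.01 and 87.4 ± 4.58 CPM at day 7 (log2 −0.06 and 0.00; edgeR adjusted p = 0.533 and 0.989). The weak region between them had a log2 fold change of −0.03 (edgeR adjusted p = 0.929). A flank region 7.41 kb from the gene was lower, at 4.69 ± 1.19 CPM at day 21 and 6.74 ± 0.789 CPM at day 7 (log2 −0.55 ± 0.18; edgeR adjusted p = 0.0239), with overlap between the days. This call was lost on leaving out any 1 of 5 libraries (day 21 replicates 2, 3 and 4, day 7 replicates 3 and 4; edgeR adjusted p up to 0.0914). The strongest distal region of Klf10, 5.71 kb away, did not pass (log2 0.14, edgeR adjusted p = 0.586).

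Klf13, known in T lymphocytes for activating Ccl5, gained at 5 of 11 distal regions inside its body and 0 of 11 in its flank. The strongest, 27.1 kb into the gene, had 55.2, 60.7, 71.7 and 60.6 CPM at day 21 and 50.3, 46.6, 51.4 and 50.8 CPM at day 7, with no overlap (log2 0.32 ± 0.07; edgeR adjusted p = 5.36e-04). At 13.5 kb the values were 44.4, 38.9, 43.9 and 37.0 CPM at day 21 and 31.7, 27.7, 29.0 and 31.4 CPM at day 7 (log2 0.45 ± 0.08; edgeR adjusted p = 1.72e-05). At 41.8 kb they were 16.5 ± 2.71 CPM at day 21 and 9.55 ± 0.921 CPM at day 7 (SD, n = 4 each; log2 0.78 ± 0.13; edgeR adjusted p = 2.48e-06). The other 2 had log2 fold changes of 1.19 ± 0.29 and 0.35 ± 0.12 (edgeR adjusted p = 0.00173 and 0.0393), and days did not overlap in any of the 5. Over all genes 10.7% of distal regions in bodies and 8.99% of those outside bodies were higher. Day 21 lay above day 7 without overlap in 9.99% of all regions. Its 2 start-side regions did not pass, at log2 0.03 over the start and 0.15 just inside it (edgeR adjusted p = 0.784 and 0.103), although trended offsets called both (edgeR adjusted p = 0.00894 and 0.00491).

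Summed per gene, the gene ends of Klf2 (0.40) and Klf4 (0.21) were higher and those of Klf9 lower (log2 −0.36 ± 0.06; edgeR adjusted p = 1.50e-05). The other 5 did not pass: Klf6 had a log2 fold change of 0.11 (edgeR adjusted p = 0.115), Klf13 0.07 (adjusted p = 0.308), Klf3 −0.02 (0.862), Klf7 −0.03 (0.697) and Klf10 −0.03 (0.683). Over all 13569 genes tested, 6.71% of end sums were higher and 24.6% lower, with a median log2 fold change of −0.09. The Klf counts were 2 higher and 1 lower of 8. With 8 genes such counts are coarse, and their difference from all genes was not tested. The Klf4 call was lost with annotated starts only (edgeR adjusted p = 0.111). The Klf2 call was kept in all 17 alternatives, but with log2 fold changes down to 0.14. The Klf2 start region alone had 0.14 and did not pass. The split over all genes, 911 higher and 3338 lower, became 1628 higher and 1646 lower with trended offsets. It was 1474 higher and 1510 lower with DESeq2, which took its size factors from the end sums alone. Both scalings recentre the end sums, to medians over all genes of −0.004 and −0.002, so nearly even splits arise by construction. Under both, the gene ends of Klf6 (edgeR adjusted p = 7.44e-04; DESeq2 2.09e-04) and Klf13 (edgeR adjusted p = 0.0133; DESeq2 8.18e-04) were called higher as well, and the calls at Klf2, Klf4 and Klf9 held. The days did not overlap in the end sums of Klf2, higher at day 21 (5.95% of all genes), and Klf9, lower at day 21 (20.6% of all genes).

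**Figure D3:**
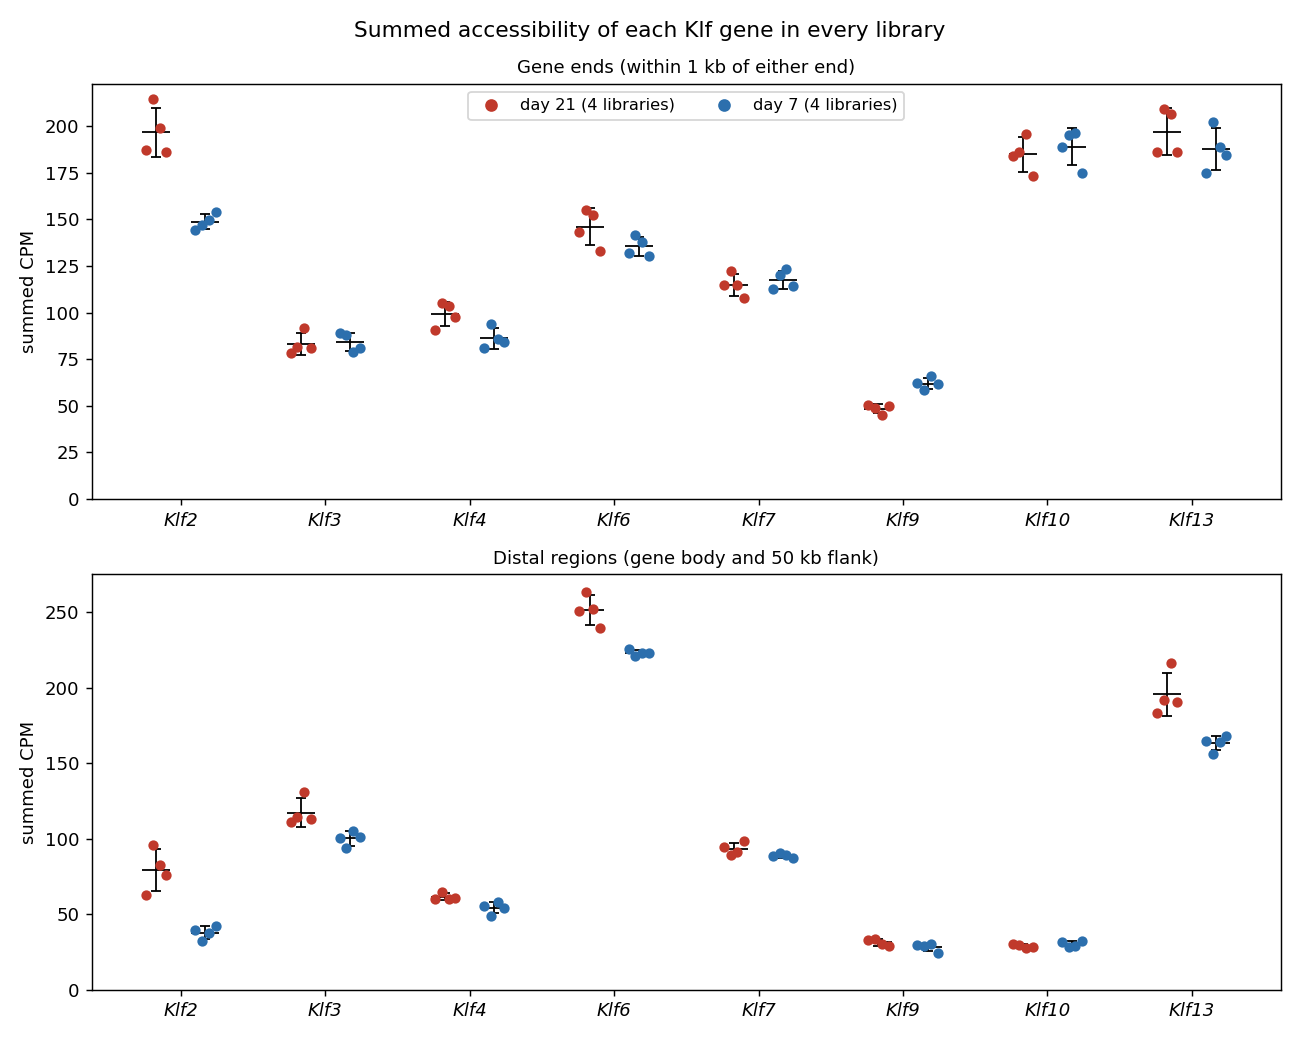
Summed CPM of each gene in every library (points), with the mean ± SD of each day's 4 libraries, for gene ends (above) and distal regions (below). The gene ends of Klf2 stand higher and those of Klf9 lower at day 21 without overlap, and the distal sums of Klf2, Klf3, Klf4, Klf6 and Klf13 stand higher without overlap.

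Distal sums were higher for 5 of the 8 genes and lower for 0, where 19.2% of all 14835 genes were higher and 11.4% lower with a median log2 fold change of 0.04. With trended offsets the genes split into 2277 higher and 2274 lower, in place of 2846 and 1684. Besides Klf2 (1.06), the higher sums were those of Klf13 (log2 0.26 ± 0.05; 196 ± 14.4 CPM at day 21 and 163 ± 4.84 CPM at day 7; edgeR adjusted p = 2.86e-05) and Klf3 (log2 0.23 ± 0.05; 117 ± 9.30 CPM at day 21 and 100.2 ± 4.74 CPM at day 7; edgeR adjusted p = 9.63e-04). Klf6 (log2 0.17 ± 0.04; 251 ± 9.77 CPM at day 21 and 223 ± 2.01 CPM at day 7; edgeR adjusted p = 0.00197) and Klf4 (log2 0.18 ± 0.06; 61.5 ± 2.31 CPM at day 21 and 54.2 ± 3.68 CPM at day 7; edgeR adjusted p = 0.0264) completed them. The sums of Klf7 (log2 0.07, edgeR adjusted p = 0.345), Klf9 (log2 0.15, adjusted p = 0.179) and Klf10 (log2 −0.08, adjusted p = 0.520) did not pass. In the 5 sums called, every day 21 library lay above every day 7 library, which held for 17.1% of all genes (the reverse for 10.4%).

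Of these 5 calls only that of Klf2 was kept under every choice of distal regions tried. All 7 distal regions of Klf2 lay in its flank, within 23.8 kb of the gene. Dropping gene bodies, a flank of 25 kb or windows of 2000 bp left its own regions unchanged. Its kept call is therefore no test of these choices. Restricted to regions outside gene bodies, the log2 fold changes were −0.15 for Klf13 (edgeR adjusted p = 0.152) and −0.04 for Klf3 (edgeR adjusted p = 0.740), and those of Klf6 (log2 0.06, edgeR adjusted p = 0.369) and Klf4 (log2 0.08, edgeR adjusted p = 0.420) also missed the threshold. Klf9, whose sum was then its upstream flank region alone, was called higher (log2 0.23, edgeR adjusted p = 0.0475). With a flank of 100 kb Klf6 (log2 −0.02, edgeR adjusted p = 0.686) and Klf4 (log2 0.02, edgeR adjusted p = 0.834) were not called, and with windows of 2000 bp around gene ends Klf4 was at −0.15 (edgeR adjusted p = 0.114), its downstream region then counting as a gene end. With trended offsets, too, Klf6 (edgeR adjusted p = 0.117) and Klf4 (edgeR adjusted p = 0.0941) were not called. The Klf4 call was also lost without day 21 replicate 2 (edgeR adjusted p = 0.122), day 21 replicate 4 (0.0565), day 7 replicate 2 (0.110) or day 7 replicate 4 (0.0584).

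**Figure D4:**
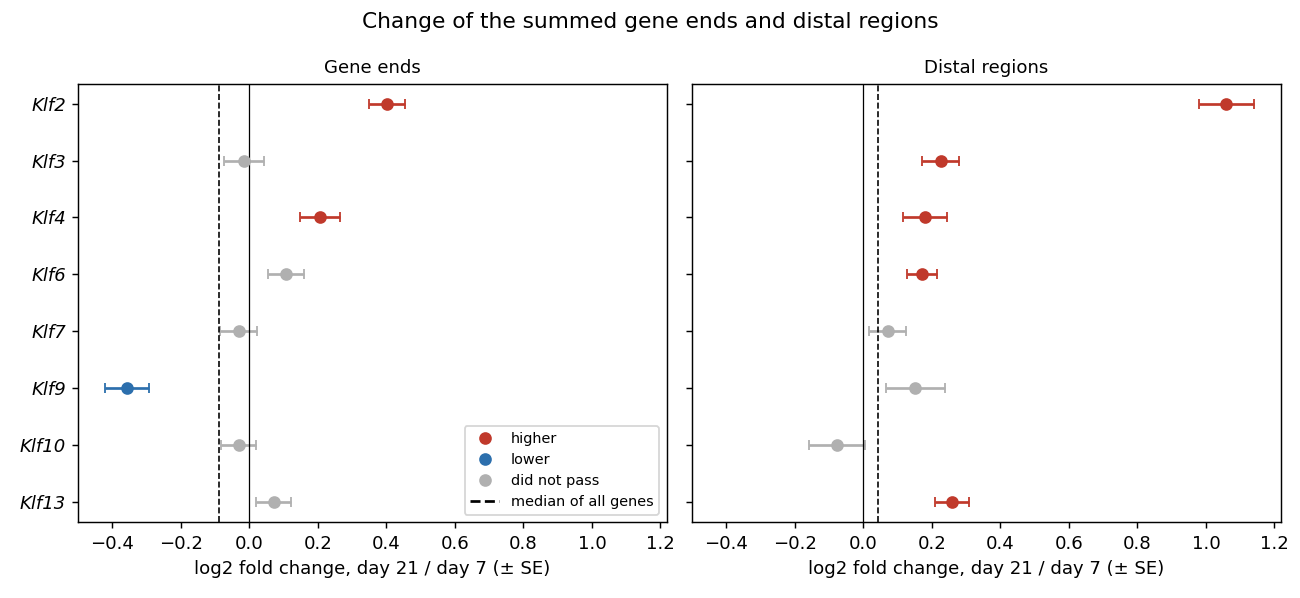
Log2 fold change (day 21 over day 7, ± SE) of the summed gene ends and of the summed distal regions of each gene; the dashed line is the median of all genes. At gene ends the genes lie on both sides of 0, from −0.36 to 0.40, while in distal regions 7 of 8 lie above 0 and Klf2 stands apart at 1.06.

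A further test compared the 2 classes within each gene, on the log2 ratio of the gene-end sum to the distal sum (limma, 11247 genes). The ratio was lower at day 21 for Klf2 (−0.66 ± 0.09; limma adjusted p = 2.73e-05), Klf9 (−0.51 ± 0.10; limma adjusted p = 0.00105), Klf3 (−0.24 ± 0.07; limma adjusted p = 0.0169) and Klf13 (−0.19 ± 0.06; limma adjusted p = 0.0326), and higher for 0 of the 8. Of all genes 5.16% were higher and 18.4% lower, with a median of −0.11. For Klf2 it was 1.58, 1.16, 1.27 and 1.29 at day 21 and 1.86, 2.20, 2.00 and 1.87 at day 7, without overlap. For Klf9 it was 0.60, 0.53, 0.56 and 0.79 at day 21 and 1.05, 1.00, 1.12 and 1.35 at day 7, also without overlap. Such separation was found in 18.6% of all genes with day 21 below and 5.37% with day 21 above. At Klf2 both sums were higher and the distal one more so, while at Klf9 the gene end was lower and the distal sum did not pass. The Klf13 call was lost without day 21 replicate 1, 3 or 4 or day 7 replicate 2 or 3 (limma adjusted p up to 0.102). The ratios of Klf4 (0.02), Klf6 (−0.06), Klf7 (−0.10) and Klf10 (0.04) did not pass (limma adjusted p = 0.906, 0.405, 0.330 and 0.792).

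Levels can be set side by side over the starts once divided by region width, and their order depends on that division. Undivided, over all libraries, Klf13 (126 CPM) and Klf7 (116 CPM) stood above Klf6 (106 CPM), whose start region was the narrowest, at 711 bp. Per kb, Klf6 had the most counts, at 144 ± 8.21 CPM per kb at day 21 and 154 ± 7.61 at day 7 (SD, n = 4 each). Klf2 followed with 103 ± 4.02 CPM per kb at day 21 and 92.9 ± 2.47 at day 7, then Klf13 with 95.3 ± 5.32 at day 21 and 93.5 ± 8.25 at day 7, and Klf7 with 91.5 ± 4.66 at day 21 and 93.5 ± 3.94 at day 7. These 3 neighbours lay within their spread of each other at day 7. Klf3 had 80.4 ± 4.99 CPM per kb at day 21 and 81.7 ± 4.72 at day 7, Klf4 63.2 ± 2.50 at day 21 and 58.5 ± 4.01 at day 7, and Klf9 the lowest level with 37.3 ± 1.92 at day 21 and 47.7 ± 2.32 at day 7. The strong Klf10 regions, whose start was not assigned, had 101 and 89.5 CPM per kb at day 21 and 105 and 89.6 at day 7.

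At the limit of 50 kb, the last distal regions taken lay 49.0 kb from Klf4 (0.674 CPM at day 21 and 1.06 CPM at day 7) and 49.3 kb from Klf6 (2.64 CPM at day 21 and 1.80 CPM at day 7). The first left out lay 50.2 kb from Klf6 (2.12 CPM at day 21 and 3.05 CPM at day 7) and 51.0 kb from Klf13 (2.55 CPM at day 21 and 2.62 CPM at day 7).

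Other genes of the pathway were counted from lists, whose counts read against all genes tested (6.71% higher and 24.6% lower in end sums; 19.2% and 11.4% in distal sums). Among 14 other KLF and SP family genes measured at their ends, 0 were higher and 2 lower, Klf16 (log2 −0.36 ± 0.06, edgeR adjusted p = 1.82e-05) and Sp3 (−0.17 ± 0.05, 0.0112); the list's median was −0.09, equal to that of all genes, and its lower count was no larger a share than over all genes. Of 16 measured in distal regions, Sp1 (0.37 ± 0.06, edgeR adjusted p = 1.83e-06) and Sp9 (0.63 ± 0.10, 2.41e-06) were higher and Klf12 (−0.31 ± 0.09, 0.00643) lower, with a median of 0.01. Sp1 and Sp3 encode the widely expressed GC-box factors that share binding sites with KLFs.

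Upstream of Klf2 and Klf4 in endothelial cells stands a kinase cascade (MEKK3, MEK5, ERK5) that activates MEF2 factors, with FOXO factors as further regulators. At gene ends 0 of 6 were higher and 2 lower, Mapk7, which encodes ERK5 (log2 −0.35 ± 0.07, edgeR adjusted p = 4.76e-05), and Mef2d (−0.30 ± 0.07, 6.24e-04), beside 6.71% higher and 24.6% lower of all genes. In distal regions 5 of 9 were higher and 0 lower, beside 19.2% and 11.4% of all genes: Foxo3 (0.21 ± 0.05, edgeR adjusted p = 0.00167), Mef2c (0.16 ± 0.04, 0.00205), Mef2a, Map3k3 and Mapk7, with a list median of 0.16 against 0.04 over all genes. The distal count was 2 higher with trended offsets and 3 with DESeq2. Mapk7 had a lower end sum and a higher distal sum.

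Among cofactors and ubiquitin ligases of KLF proteins, 1 of 13 was higher and 6 lower at gene ends (6.71% and 24.6% of all genes), with a median of −0.16 against −0.09 over all genes. Ctbp2, a corepressor of KLF3, was the higher one (log2 0.30 ± 0.06, edgeR adjusted p = 2.52e-04), and Wwp1, a ligase acting on KLF2, had the smallest p of the lower ones (−0.30 ± 0.07, 6.45e-04). With trended offsets 1 was higher and 2 lower. In distal regions 4 of 13 were higher and 0 lower (19.2% and 11.4% of all genes), led by the acetyltransferase genes Kat2b (0.17 ± 0.05, edgeR adjusted p = 0.0105) and Ep300 (0.23 ± 0.08, 0.0212), but DESeq2 called 0 higher and trended offsets 0 higher and 1 lower.

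Genes reported as KLF targets, mostly in lymphocytes and endothelium, went both ways. At gene ends 2 of 10 were higher and 1 lower (6.71% and 24.6% of all genes), with a median of −0.02. Ccl5, a chemokine gene activated by KLF13 in T cells, was lower, at 3.48 CPM at day 21 and 11.5 CPM at day 7 (log2 −1.74 ± 0.17; edgeR adjusted p = 5.48e-13). Thbd, the thrombomodulin gene activated by KLF2 and KLF4 in endothelium, was higher, at 22.5 CPM at day 21 and 17.2 CPM at day 7 (log2 0.41 ± 0.10; edgeR adjusted p = 0.00129), as was Nos3. In distal regions, where 19.2% of all genes were higher and 11.4% lower, 0 of 10 were higher and 2 lower, Cdkn1a (log2 −0.21 ± 0.06, edgeR adjusted p = 0.00736) and S1pr1 (−0.14 ± 0.06, 0.0427), with a median of 0.01. S1pr1, the sphingosine phosphate receptor gene, is a textbook KLF2 target in T cells.

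The cDC1 label was checked against markers, and so were other cells that share these factors. Of all genes, 6.71% were higher and 24.6% lower in end sums, and 19.2% and 11.4% in distal sums. Of 12 cDC1 markers 11 had regions at their ends (Itgae had none there), summing to 409.9 to 460 CPM at day 21 and 406 to 433 CPM at day 7, with 3 higher and 1 lower; distal sums were higher for 7 and lower for 1 of 11. Macrophage and monocyte markers, of cells that also use Klf2, Klf4 and Klf6, summed to 66.7 to 75.0 CPM at day 21 and 61.0 to 67.4 CPM at day 7 at 11 gene ends (3 higher, 0 lower; distal regions 3 higher and 1 lower of 11). Endothelial and stromal markers, of cells with high Klf2 and Klf4, summed to 36.7 to 46.4 CPM at day 21 and 44.5 to 48.1 CPM at day 7 (0 higher and 1 lower of 4 tested; distal 0 and 1 of 8), and Tie1, Tek, Col1a2 and Dcn had no region at an end. T and NK cell markers were lower for 3 and higher for 1 of 9 at gene ends, and lower for 5 and higher for 1 of 11 in distal regions, where they summed to 266 to 288 CPM at day 21 and 310 to 341 CPM at day 7; Lck and Ncr1 had no region at an end.

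Of the other lists, beside the same shares of all genes (6.71% higher and 24.6% lower at ends, 19.2% and 11.4% in distal sums), cDC2 markers had 0 higher and 1 lower both at 7 gene ends and in 6 distal sums, and neutrophil markers 0 changed at 4 gene ends and 1 higher of 5 distal sums. Plasmacytoid dendritic cell markers had 2 lower and 1 higher of 3 end sums and 1 higher of 5 distal sums, and B cell markers 0 changed at 4 gene ends and 1 higher and 1 lower of 3 distal sums. Melanoma markers had 1 higher and 2 lower of 5 gene ends and 3 lower of 5 distal sums. With 3 to 7 genes tested a list, such counts are coarse. The part of other cells in the Klf changes was not tested.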

How the data were processed

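ATAC-seq counts of 8 libraries, 4 at day 21 and 4 at day 7, were analysed. The authors deposited raw counts per region over 1 shared set of 128057 regions, without normalization. The tools named in the submitters' processing notes are MACS2 2.1.0.20150603, bedtools, cutadapt 1.9, SAMtools and Picard 1.65, and the builds are mm10 and GRCm38. The aligner, the read filters, how peaks were merged, any shift of insertion positions and the counting base of the coordinates are not given in the sources used here. A shift moves a count by a few bases, little beside the median region width of 364 bp.

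Gene ends came from RefSeq's gene table (GRCm38.p6) and strands from its promoter table (7 of the 8 genes). Counts of regions overlapping 1000 bp on each side of either end were summed per gene, as were distal regions; a region near several ends counted for each gene. edgeR 4.0.16 (R 4.3.3; filterByExpr, TMM factors, quasi-likelihood test) compared the days in regions and sums, and limma 3.58.1 compared log2 ratios of sums (prior count 2), always over all features with Benjamini-Hochberg adjustment. SEs of edgeR's log2 fold changes are the fold change over the square root of F. CPM used TMM-scaled totals. The tests were run on simulated data beforehand.

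The 8 genes and all gene lists were chosen with earlier results of these data known. Named were all 8 genes, their gene-end regions, per gene the 3 higher and 3 lower distal regions with the smallest p and the strongest distal region, and 2 genes per pathway list, those of smallest p, at ends and in distal regions; further genes and regions were named after their values were seen. Alternatives changed the scaling (RLE factors, trended offsets), filter, tool (DESeq2 1.42.0), depth, window, flank, gene bodies, start ends and prior count, added the replicate number as a block, and left out each library. DESeq2 set its own size factors from each set of regions or sums, so it changed the scaling too. Samples were grouped by their labels.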

Additional observations from a re-analysis of the deposited data

Results flagged for a closer look

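Over 114 groups of 4 libraries checked (the named regions and the gene-end and distal sums, at each day), 2 held a library far from the other 3, and chance alone marks about 1 group in 20. In the Klf3 region 7.91 kb into the gene, day 21 replicate 3 had 21.1 CPM and the other day 21 libraries 13.8 to 14.9 CPM. Without that library the region was still called higher (log2 0.55, edgeR adjusted p = 0.00206). In the Klf6 region 43.0 kb downstream, day 7 replicate 2 had 6.59 CPM and the other day 7 libraries 3.79 to 4.15 CPM. Without that library the region was no longer called lower (log2 −0.51, edgeR adjusted p = 0.129).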

How the results depend on the processing

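Over 41 named regions, 551 of 574 alternative values kept their direction and side of the threshold, 13 lost a call, 10 gained one and 0 reversed. Over 27 gene sums and ratios the counts were 406 of 435, 16, 9 and 4. The reversals were Klf13 (−0.15) and Klf3 (−0.038) in distal regions outside gene bodies, Klf4 (−0.15) with windows of 2000 bp and Klf6 (−0.024) with a flank of 100 kb; each alternative sums other regions. The distal sums called higher fell to 3 genes with a flank of 100 kb, 2 outside gene bodies (Klf2, and Klf9, which gained its call at log2 0.23, edgeR adjusted p = 0.0475) and 3 with trended offsets. Higher gene ends numbered 1 with annotated starts only, 4 with DESeq2 and 4 with trended offsets, and 1 gene, Klf4, gained a higher end-to-distal ratio with windows of 2000 bp (log2 0.46, limma adjusted p = 6.44e-04). Trended offsets and DESeq2 recentre the gene-end sums, as given above. They recentre the distal sums too, to medians over all genes of 0.002 with trended offsets and −0.0006 with DESeq2. Any further cause of the changes with scaling was not tested.

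Leaving out 1 library at a time gave 20 to 25 higher and 6 to 9 lower Klf regions, 2 to 3 higher and 1 to 1 lower gene ends, 4 to 5 higher and 0 to 0 lower distal sums, 0 to 0 higher and 3 to 4 lower end-to-distal ratios, and 3 to 3 higher and 0 to 0 lower far-end-to-start ratios. Of the 31 region calls, 26 to 31 were shared with each alternative. Over all genes, counts moved by over 1.5 times at gene ends with DESeq2 (1474 higher, 1510 lower, against 911 and 3338) and trended offsets (1628 higher, 1646 lower) and in distal regions outside gene bodies (1376 higher, 1070 lower, against 2846 and 1684), and lower far-end-to-start ratios numbered 66 to 67 without day 21 replicate 2, 3 or 4, against 102.

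In the labels, same-numbered libraries of the days share only a number. Their deviations correlated at 0.0041 to 0.0098 and those of other pairs at −0.011 to 0.013. Not every library correlated best with its own number. Values this small cannot show whether same-numbered libraries shared handling. With the replicate number as a block, 33 Klf regions were called (25 higher, 8 lower), including all 31, and gene ends were higher for 3 genes, Klf6 being added (edgeR adjusted p = 0.0378).

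Without some 1 library 6 named region calls were lost, all of them distal; 3 lay in flanks at means under 7 CPM on both days, where counts limit precision most. Intervals between libraries cover these samples only.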
